A study of Mus musculus with 24 samples.

Results

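Hair keratins and keratin-associated proteins are the building material of hair, and their transcripts were followed here in healing back wounds of diabetic mice. The genes were chosen by symbol, as every symbol that begins with Krtap plus Krt25 to Krt28, Krt31 to Krt36, Krt71 to Krt75 and Krt81 to Krt87. Such a symbol was carried by 80 of the 54232 genes measured, 58 Krtap genes and 22 keratins. The 31 genes with 10 or more counts in at least 2 of 24 libraries were kept, all 22 keratins and 9 Krtap genes. Krt85 was not analysed here.

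All mice were C57BLKS/J males with the genotype Lepr (db/db), which lack working leptin receptor signalling and become obese and diabetic, so the control wounds were diabetic wounds too. Each wound was a 6 mm punch through the full thickness of the back skin at 16 weeks of age, dressed at once with an alginate bandage that was exchanged on day 3. The 6 Ctrl wounds had a control bandage. The others had a bandage loaded with medium in which primary macrophages had been kept, of the M0 state for CM0 (4 wounds), M1 for CM1 (4 wounds), M2a for CMA (5 wounds) and M2c for CMC (5 wounds). The sources used here do not give how these states were induced. Wound tissue was frozen on day 10, at 17.5 weeks of age, and RNA of the whole sample was sequenced, with 7267879 to 11985292 counts per library. The basal epidermal keratins Krt5 and Krt14, the collagens Col1a1 and Col3a1, and Vim, Pecam1 and Ptprc, which mark mesenchyme, vessels and leukocytes, were detected in every library, from 67.0 CPM upward. The labels do not state that each library came from a separate mouse, so the p-values below measure the spread between libraries. In RNA from whole tissue, fewer cells of a type and less RNA per cell cannot be told apart.

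A hair is made only while its follicle is in the growth phase. Matrix cells at the base of the follicle then divide and move upward, the inner ones into the hair shaft and the outer ones into the inner root sheath, a rigid tube that guides the shaft. Both fill with keratin filaments, each built of a type I and a type II keratin, and root sheath and shaft use different keratins. In the shaft, keratin-associated proteins rich in cysteine, or in glycine and tyrosine, are added later and cross-link the filaments.

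The 31 genes lie in a few clusters. On chromosome 11 are the type I keratins of the root sheath, Krt25 to Krt28, the type I keratins of the shaft, Krt31 to Krt36, and Krtap3-2, Krtap16-1 and Krtap17-1. On chromosome 15 are the type II keratins, those of the root sheath and the companion layer beside it (Krt71 to Krt75) and those of the shaft (Krt81 to Krt84, Krt86 and Krt87). Krtap7-1, Krtap8-1 and Krtap11-1 lie on chromosome 16, and Krtap10-4, Krtap10-10 and Krtap12-1 on chromosome 10 inside the span of Tspear. Krt74 is annotated as a transcribed unitary pseudogene and the other 30 as protein coding.

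Promoters are shown for 5 genes that stand for the patterns described below, 2 of the root sheath, 2 of the hair cortex (the core of the shaft) and 1 keratin-associated protein. They are the 250 bases before the transcription start in RefSeq (GRCm38.p6), all on the minus strand and read 5′ to 3′, with the TATA box TATAAA and the Lef1/Tcf core CTTTGAA in capitals. Lef1 is a transcription factor of the hair matrix that answers Wnt signals. The windows are chr15:101743098-101743347 for Krt71, chr11:99322952-99323201 for Krt25, chr11:100050552-100050801 for Krt31, chr11:100041555-100041804 for Krt34 and chr16:89571184-89571433 for Krtap11-1.
Krt71: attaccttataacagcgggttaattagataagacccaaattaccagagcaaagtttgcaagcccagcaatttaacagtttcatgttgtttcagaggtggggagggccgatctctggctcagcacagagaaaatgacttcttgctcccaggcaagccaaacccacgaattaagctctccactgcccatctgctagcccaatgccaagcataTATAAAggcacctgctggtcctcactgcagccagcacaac
Krt25: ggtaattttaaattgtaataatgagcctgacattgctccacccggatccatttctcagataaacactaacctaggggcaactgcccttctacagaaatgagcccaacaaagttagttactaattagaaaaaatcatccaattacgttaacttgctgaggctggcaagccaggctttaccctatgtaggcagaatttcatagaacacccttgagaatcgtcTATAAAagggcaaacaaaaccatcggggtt
Krt31: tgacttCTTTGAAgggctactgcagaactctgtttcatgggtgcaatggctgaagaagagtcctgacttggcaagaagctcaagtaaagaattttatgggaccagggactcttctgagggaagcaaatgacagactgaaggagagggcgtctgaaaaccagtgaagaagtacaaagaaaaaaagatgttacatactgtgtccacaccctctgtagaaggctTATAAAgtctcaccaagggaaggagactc
Krt34: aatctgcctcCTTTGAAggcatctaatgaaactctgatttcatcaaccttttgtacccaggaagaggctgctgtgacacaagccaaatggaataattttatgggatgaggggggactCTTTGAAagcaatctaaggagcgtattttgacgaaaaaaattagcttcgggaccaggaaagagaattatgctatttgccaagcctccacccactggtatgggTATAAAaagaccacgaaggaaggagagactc
Krtap11-1: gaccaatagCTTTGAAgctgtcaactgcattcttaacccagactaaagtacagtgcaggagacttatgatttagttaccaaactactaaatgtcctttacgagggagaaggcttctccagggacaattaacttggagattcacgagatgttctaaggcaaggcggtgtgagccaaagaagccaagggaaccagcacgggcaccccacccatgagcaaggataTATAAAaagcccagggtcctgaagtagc

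In all 5 sequences the TATA box begins 28 to 40 bases before the start. The Lef1/Tcf core is present in the cortex keratins Krt31 (244 bases before the start) and Krt34 (240 and 133 bases before it) and in Krtap11-1 (241 bases before it), and these letters are not in the windows of Krt71 and Krt25. The RefSeq table held 21 of the 31 genes. On either strand TATAAA was found in 18 of the 21 windows (85.7%), in 77.8% of 45 windows of the Krtap genes not kept and in 12.4% of all 32851 promoters, and within the last 60 bases on the gene's strand in 76.2% of the 21 and 2.87% of all. CTTTGAA was found on either strand in 4 of 7 shaft keratins, 1 of 6 Krtap genes and 0 of 8 root sheath keratins, and in 4.46% of all promoters. TTTATT, a core like that bound by Hoxc13, a regulator of shaft keratins, was found in 23.8% of the 21 and in 18.1% of all. TTTATT shares 5 letters with the reverse strand of TATAAA, and matches of both can overlap. A match describes the letters and was not tested as a binding site.

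The genes were expressed very unevenly from wound to wound, and the unevenness crossed the treatment groups. Levels are given as CPM, the read count scaled to a common library size with a correction for composition. The summed level of the 31 genes was 7171 CPM in 1 control wound, Ctrl 3, and 682.6, 37.8, 15.9, 11.6 and 5.39 CPM in the other controls. It was 509.2, 87.5, 15.1 and 12.8 CPM in CM0, and 62.2, 55.9, 33.8 and 26.2 CPM in CM1. It was 962.1, 260.1, 148.0, 17.4 and 15.7 CPM in CMA, and 115.7, 35.9, 25.4, 14.5 and 11.5 CPM in CMC. The highest wound was thus 1330-fold above the lowest, both were controls, and Ctrl 3 alone held 70.9% of the counts of these genes in all 24 libraries. The genes made up 0.756% of all counts in Ctrl 3 (Wilson 95% interval 0.750 to 0.762) and 0.000534% in Ctrl 6 (0.000418 to 0.000682); such intervals cover counting error only. After Ctrl 3, the wounds CMA 3, Ctrl 4 and CM0 2 were the highest, and 17 of the 24 stood under 100 CPM.

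**Figure D1:**
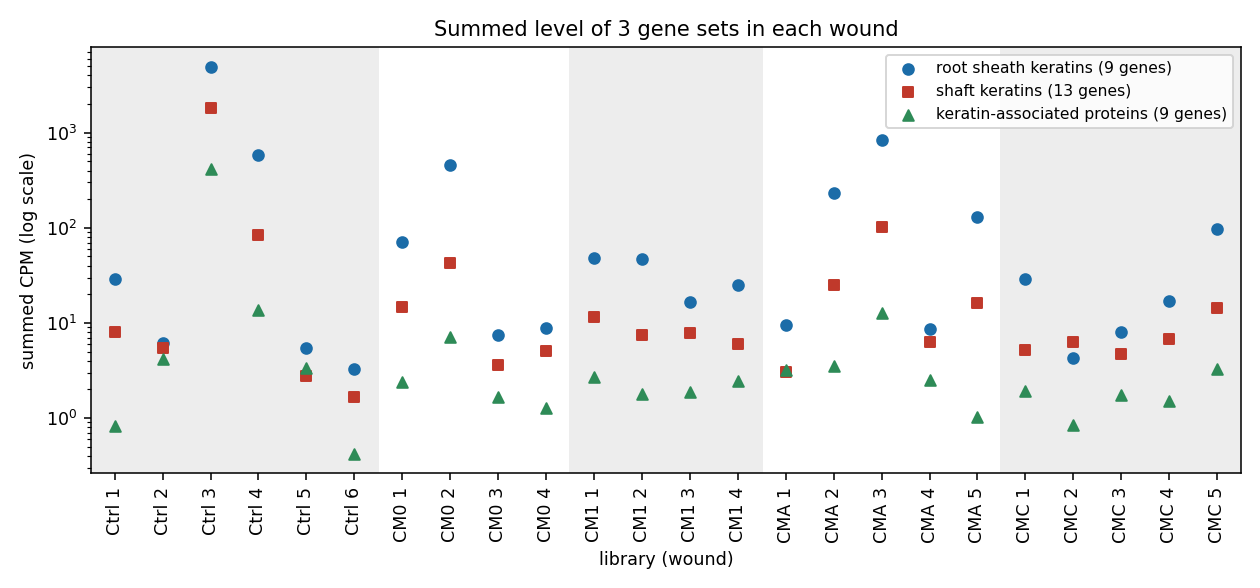
Summed CPM (log axis) of the 9 root sheath keratins, the 13 shaft keratins and the 9 keratin-associated proteins in each of the 24 libraries, with groups shaded in turn. Ctrl 3 leads in all 3 sets, at 4935, 1819 and 417 CPM, and the lowest level of each set is found in another control, Ctrl 6.

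The root sheath keratins had the highest summed CPM of the 3 gene sets in Ctrl 3. Their sum was 4935 CPM in Ctrl 3, 846.7 in CMA 3, 584.8 in Ctrl 4, 459.3 in CM0 2 and 231.8 in CMA 2, and 3.29 CPM in Ctrl 6. Krt71, the type II keratin of the inner root sheath (chromosome 15, 101733949 to 101743109), ranged in Ctrl from 0.0843 to 2174 CPM with a median of 3.86. It stood at 16.2, 183.8, 1.04 and 1.08 CPM in CM0 1 to CM0 4 and at 19.6, 16.7, 3.42 and 7.06 CPM in CM1. In CMA it stood at 0.491, 91.2, 364.9, 1.32 and 50.1 CPM, and in CMC at 8.19, 0, 0.349, 4.64 and 35.5 CPM. All groups overlapped, and the 7 highest wounds were Ctrl 3, CMA 3, Ctrl 4, CM0 2, CMA 2, CMA 5 and CMC 5. Krt71 had 0 counts in CMC 2, where 3 counts, the limit that a count of 0 allows, would be 0.319 CPM.

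Krt25, the type I keratin with the highest mean CPM in the root sheath set (chromosome 11, 99315516 to 99322951), followed the same wounds. In Ctrl it ranged from 0.253 to 1279 CPM with a median of 3.25. It stood at 16.0, 124.7, 0.726 and 0.688 CPM in CM0 and at 11.8, 9.95, 3.63 and 6.39 CPM in CM1. In CMA it stood at 0.737, 56.5, 229.8, 2.40 and 34.5 CPM, and in CMC at 8.08, 0.213, 0.465, 4.18 and 27.2 CPM. CMA 3 was the highest wound after Ctrl 3 for both keratins, 5.56-fold below it for Krt25 and 5.96-fold below it for Krt71. Krt27, another type I partner, stood at 575.1 CPM in Ctrl 3 and 97.9 in CMA 3, and Krt28 at 192.1 CPM in Ctrl 3 and at 40.7 CPM in the next wound, Ctrl 4. Krt73, a type II keratin of the root sheath cuticle, stood at 276.9 CPM in Ctrl 3 and 66.5 in CMA 3.

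Krt26 and Krt72, also keratins of the root sheath cuticle, were more confined to the highest wound than these. Krt26 stood at 67.6 CPM in Ctrl 3 and 6.30 in CMA 3, and Krt72 at 99.5 and 13.7 CPM, and 81.7% and 81.5% of their counts lay in Ctrl 3 against 53.1% to 70.1% for Krt25, Krt27, Krt28, Krt71 and Krt73. The pseudogene Krt74 reached 9.86 CPM in Ctrl 3 and at most 1.49 CPM elsewhere. Krt75, the keratin of the companion layer between the sheaths, was the 1 gene of the set with 10 or more counts in all 24 libraries. It stood at 261.0 CPM in Ctrl 3 and 32.3 in CMA 3, with a median of 4.79 CPM over the 23 other libraries and a lowest value of 1.80. The gene Gm44460 shares exon bases with Krt75 and could share its reads.

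The shaft keratins summed to 1819 CPM in Ctrl 3, 102.8 in CMA 3, 84.2 in Ctrl 4 and 42.8 in CM0 2, and to 1.69 CPM in Ctrl 6. Krt35, a type I keratin made from the matrix upward and among the earliest of the shaft (chromosome 11, 100092193 to 100096241), was spread over many wounds like the root sheath keratins. In Ctrl it ranged from 0.0843 to 274.8 CPM with a median of 1.74. It stood at 6.59, 27.4, 0.207 and 0.590 CPM in CM0 and at 3.76, 2.47, 0.415 and 2.91 CPM in CM1. In CMA it stood at 0.860, 12.7, 45.0, 1.56 and 9.58 CPM, and in CMC at 1.35, 0.531, 0.116, 1.51 and 6.31 CPM. Ctrl 3 exceeded CMA 3 by 6.10-fold, and 15 libraries had 10 or more counts of the gene.

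The later keratins of the cortex were almost all in Ctrl 3. Krt31 stood there at 196.7 CPM and at 4.50 CPM in CMA 3, the next highest wound, Krt33a at 209.6 and 4.28 CPM, Krt33b at 136.3 and 4.62 CPM, and Krt34 at 93.1 and 2.48 CPM. Ctrl 3 thus led by 29.5-fold to 49.0-fold and held 93.9% to 95.6% of the counts of these 4 genes. Each of them had 10 or more counts in only 3 libraries, Ctrl 3, CMA 3 and Ctrl 4. Their type II partners behaved alike. Krt83 reached 231.3 CPM in Ctrl 3 and 6.89 CPM in the next wound, Ctrl 4. Krt81 reached 181.9 CPM in Ctrl 3 and 7.88 CPM in CMA 3, and Krt86 reached 126.8 and 4.84 CPM in the same libraries.

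Krt87 (chromosome 15, 101431038 to 101438804) had the highest mean CPM of the type II shaft keratins, while per kilobase of transcript Krt83 was above it in Ctrl 3, at 125.5 against 104.9 CPM per kilobase. In Ctrl it ranged from 0 to 238.9 CPM with a median of 0.563. It stood at 1.46, 3.63, 0.726 and 0.688 CPM in CM0 and at 1.14, 0.987, 0.311 and 0 CPM in CM1. In CMA it stood at 0.246, 3.03, 11.4, 0.481 and 0.939 CPM, and in CMC at 0, 0.319, 0.233, 0.696 and 1.12 CPM. Only Ctrl 3, CMA 3 and Ctrl 4, at 8.91 CPM, were above 4 CPM. Krt82, the type II keratin of the hair cuticle, reached 56.1 CPM in Ctrl 3 and 2.16 CPM in the next wound, Ctrl 4. Krt32, its type I partner in the cuticle, kept a low level in every wound, from 0.519 to 4.46 CPM outside Ctrl 3 and 43.6 CPM in it; the antisense gene Gm11571 overlaps it and, without strand, could share its reads. Krt84 and Krt36 were low throughout, at 8.51 and 21.8 CPM in Ctrl 3 and at most 2.81 and 2.59 CPM elsewhere.

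**Figure D2:**
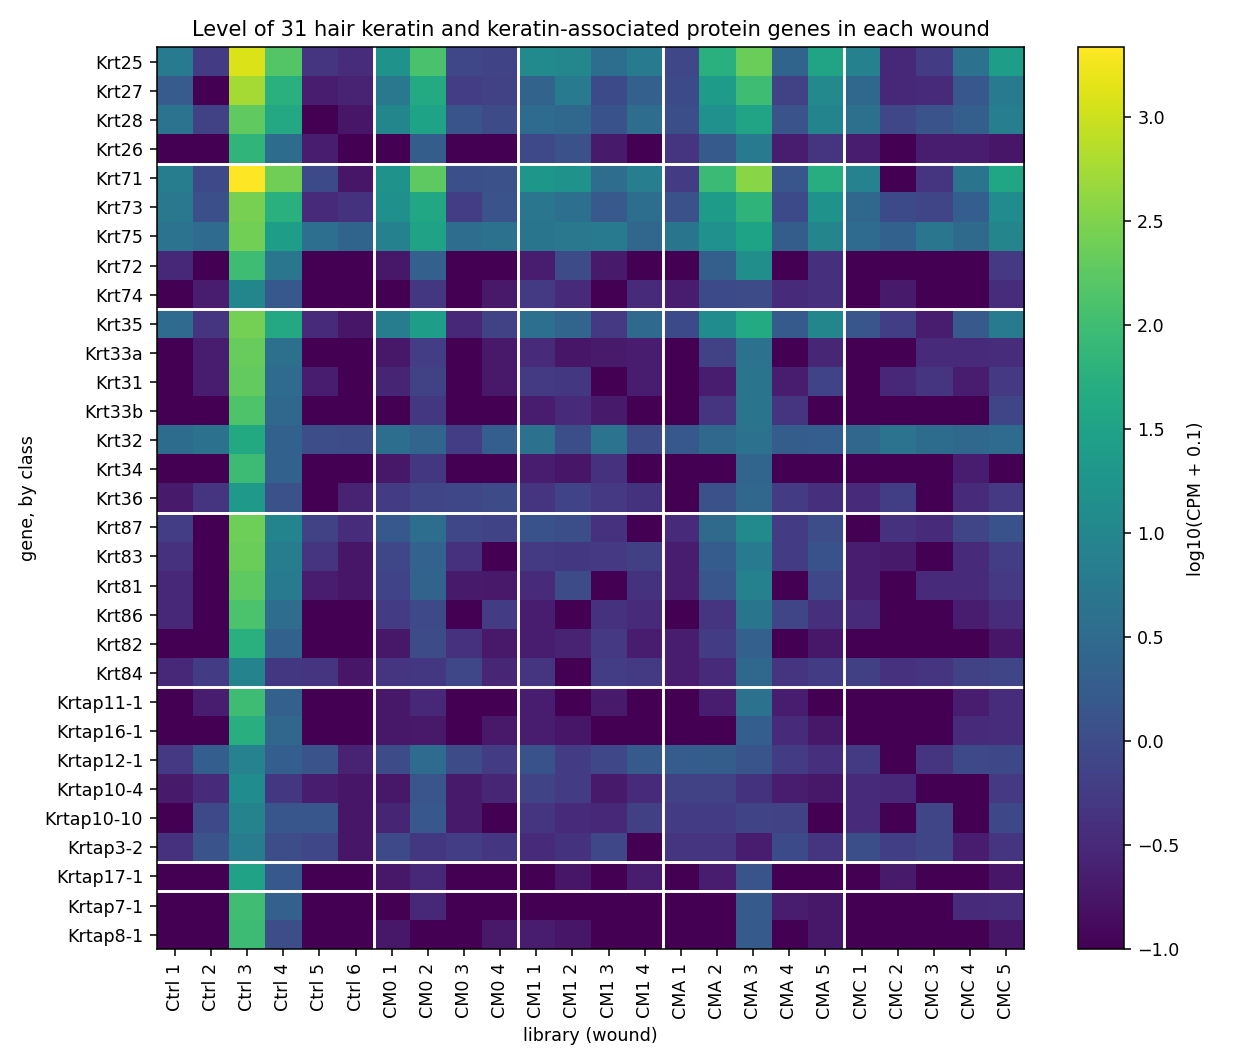
Level of each of the 31 genes (rows, by class) in each library (columns, by group) as log10 of CPM plus 0.1. The bright column is Ctrl 3, the root sheath keratins and Krt35 reach into CMA 3, Ctrl 4, CM0 2, CMA 2 and CMA 5, and Krt32, Krt75 and Krtap12-1 form rows with a low level in most wounds.

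The keratin-associated proteins had the lowest summed CPM of the 3 gene sets in Ctrl 3. Their sum was 416.7 CPM in Ctrl 3, 13.6 in Ctrl 4, 12.7 in CMA 3, 7.07 in CM0 2 and at most 4.21 CPM in the other libraries. Krtap7-1, of the glycine- and tyrosine-rich type (chromosome 16, 89507703 to 89508323), stood at 102.5 CPM in Ctrl 3, 2.03 in Ctrl 4 and 0 in the other 4 controls. It stood at 0.202 CPM in CM0 2 and 0 in the other CM0 wounds, and at 0 in all 4 CM1 wounds. In CMA it stood at 0, 0, 1.58, 0.120 and 0.0939 CPM, and in CMC at 0, 0, 0, 0.232 and 0.259 CPM. Krtap8-1, of the same type, stood at 95.7 CPM in Ctrl 3 and 1.58 in CMA 3, and these 2 genes had the largest share of counts in Ctrl 3, 96.3% and 97.2%.

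Krtap11-1, a cysteine-rich protein of the cortex (chromosome 16, 89570176 to 89571183), stood at 97.6 CPM in Ctrl 3, 2.03 in Ctrl 4, 0.117 in Ctrl 2 and 0 in the other 3 controls. In CM0 it stood at 0.0915, 0.202, 0 and 0 CPM, and in CM1 at 0.114, 0, 0.104 and 0 CPM. In CMA it stood at 0, 0.121, 4.05, 0.120 and 0 CPM, and in CMC at 0, 0, 0, 0.116 and 0.259 CPM. Krtap17-1, of the ultra-high sulfur type (chromosome 11, 99993234 to 99993994), stood at 31.6 CPM in Ctrl 3, 1.49 in Ctrl 4 and 0 in the other 4 controls, and at most 1.24 CPM, in CMA 3, among the media. Krtap16-1, also cysteine-rich, reached 53.02 CPM in Ctrl 3 and 2.57 CPM in the next wound, Ctrl 4. For all these genes a value of 0 allows up to about 0.250 to 0.413 CPM, depending on the library. These limits were reckoned from total counts, without the correction for composition.

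Krtap3-2, Krtap10-4, Krtap10-10 and Krtap12-1 differed from these. Krtap12-1 stood at 8.20 CPM in Ctrl 3 and 3.23 in CM0 2, had 10 or more counts in 11 libraries and only 27.4% of its counts in Ctrl 3. Krtap10-4 reached 12.7 CPM in Ctrl 3 and 1.31 in CM0 2. Krtap10-10 and Krtap3-2 stood at 8.72 and 6.64 CPM in Ctrl 3 and at most 1.41 and 1.17 CPM elsewhere. Of the stretches of 50 bases in their transcripts, 43.8% in Krtap10-10, 42.0% in Krtap10-4, 28.9% in Krtap3-2 and 14.7% in Krtap12-1 also occur in another gene, and Krtap10-10 shares exon bases with Gm2696, so their counts are uncertain.

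**Figure D3:**
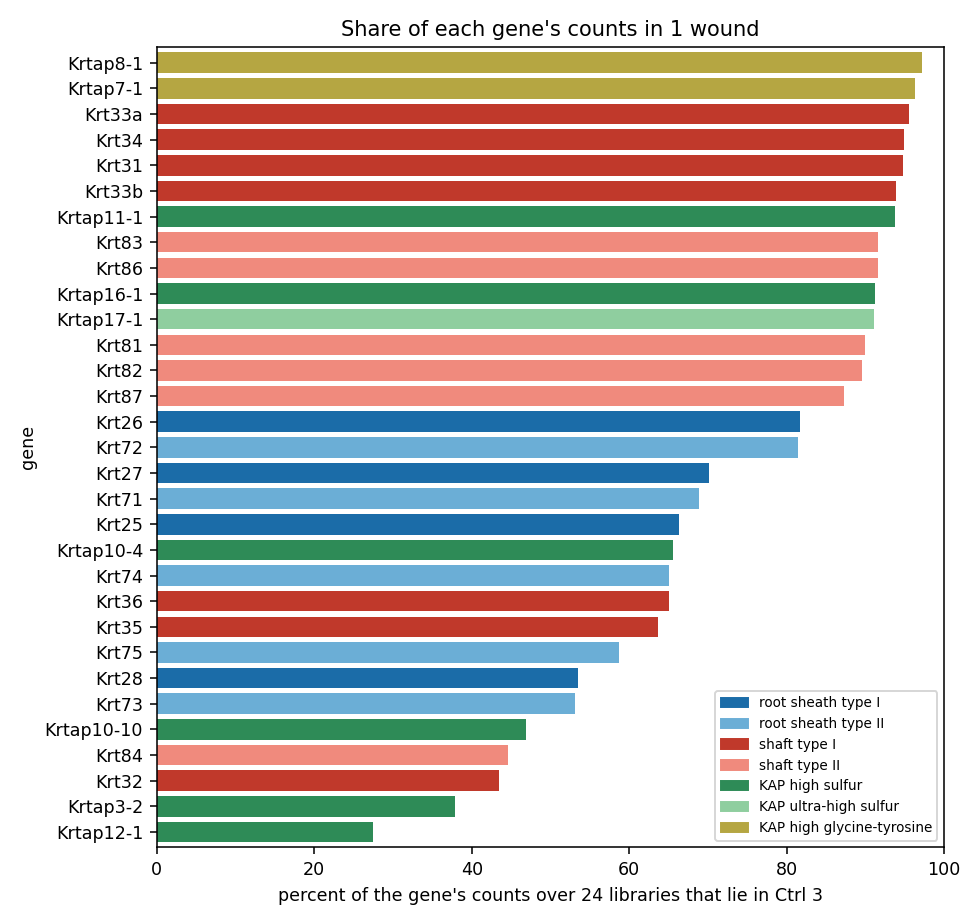
Percent of each gene's counts over the 24 libraries that lie in Ctrl 3, with bars coloured by class. The glycine- and tyrosine-rich Krtap genes and the late cortex keratins are at the top, the root sheath keratins and Krt35 lie between 53.1% and 81.7%, and Krtap12-1 is lowest at 27.4%.

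The 49 genes that did not reach 10 counts in 2 libraries were all Krtap genes, and 46 of them had 10 or more counts in exactly 1 library, which was Ctrl 3 each time. Together the 49 had 6767 counts in Ctrl 3 and 231 in the other 23 libraries, with at most 8 counts of any gene in any of those. By family, 16 were of the ultra-high sulfur type, 14 high sulfur, 14 rich in glycine and tyrosine and 5 unclassed. Just inside the threshold were Krtap3-2 (64 counts in Ctrl 3 and 10 in the next library), Krtap17-1 (305 and 11), Krt74 (95 and 11), Krtap10-4 (122 and 13) and Krtap8-1 (922 and 14). Just outside were Krtap1-3 (211 and 8), Krtap13-1 (179 and 7), Krtap3-1 (170 and 7), Krtap28-13 (189 and 7) and Krtap1-4 (177 and 6). With 10 counts required in 4 libraries 15 genes would have been kept, and with 1 count in 2 libraries 68.

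Levels of different genes can be compared only per length. In Ctrl 3 the order by CPM per kilobase of transcript was Krt71 at 994, Krt25 at 643, Krt27 at 371, Krtap8-1 at 167 and Krtap7-1 at 165. In CMA 3 the first 3 places were the same, with 167, 116 and 63.2 CPM per kilobase, followed by Krt73 at 30.7 and Krt28 at 21.1, while Krtap8-1 and Krtap7-1 were in places 15 and 16 with 2.75 and 2.54. The wounds with high levels therefore differed in the mix of the genes as well as in the amount. Shaft keratins and keratin-associated proteins took 25.4% and 5.81% of the counts of the 31 genes in Ctrl 3, and 8.41% to 12.5% and 0.698% to 2.84% in the 6 next highest libraries, Ctrl 4, CM0 2, CMA 2, CMA 3, CMA 5 and CMC 5. The root sheath keratins took 68.8% in Ctrl 3 (Wilson 95% interval 68.5 to 69.2) and 84.7% to 90.2% in those 6 libraries. These shares depend on the count rule, which removed 49 Krtap genes and no keratin. The removed genes had 6767 counts in Ctrl 3, beside 69116 of the 31 genes, and 231 in all other libraries together. With them, the share of keratin-associated proteins in Ctrl 3 would be higher and the shares of the keratins lower.

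The mix of early and late keratins of the cortex, a measure chosen after the values were seen, also differed between wounds. Krt31, Krt33a, Krt33b and Krt34 together made up 69.8% of the counts of these 4 genes plus Krt35 in Ctrl 3 (Wilson 95% interval 68.9 to 70.8). The same share was 26.1% in CMA 3 (22.5 to 29.9), 22.96% in Ctrl 4 (19.1 to 27.4) and 17.98% in CMC 5 (11.4 to 27.2). It was 8.11% in CMA 5 (4.32 to 14.7), 7.89% in CMA 2 (4.21 to 14.3) and 6.55% in CM0 2 (4.23 to 10.0). CMA 3 and Ctrl 4 differed by less than their intervals, and both lay above CM0 2 and CMA 2, although CM0 2 had 459.3 CPM of root sheath keratins against 584.8 in Ctrl 4. Krt35 as a share of Krt35 plus Krt71 was 10.98% in CMA 3 and 11.2% in Ctrl 3, and at most 16.04% in the other 5 of these 7 libraries. It varied more in libraries with lower levels, at 28.9% in CM0 1, 31.25% in Ctrl 1 and 29.2% in CM1 4. In CM1 1 and CM1 2 it was 16.1% and 12.9%. CM0 1 had 5.26% by the share of the late keratins (2.07 to 12.8). These intervals describe single libraries and no difference between treatments.

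**Figure D4:**
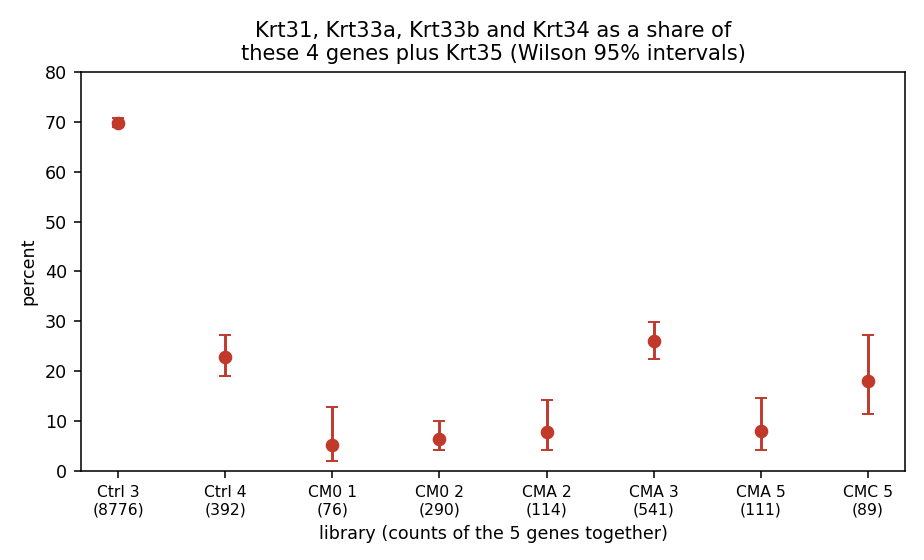
Percent of the counts of Krt31, Krt33a, Krt33b, Krt34 and Krt35 that came from the first 4 genes, in the 8 libraries with at least 50 such counts, with Wilson 95% intervals. Ctrl 3 stands at 69.8%, CMA 3 at 26.1% and Ctrl 4 at 22.96%, and CM0 2 and CMA 2 at 6.55% and 7.89%.

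Paralogs limit how finely the shaft keratins can be told apart. Of the stretches of 50 bases in their transcripts, 43.5% in Krt81 and 43.3% in Krt86 occur in another gene, mostly in each other. The share was 36.9% in Krt87, 33.1% in Krt34, 28.1% in Krt31, 24.2% in Krt33b, 23.2% in Krt83 and 21.9% in Krt33a. It was 2.81% in Krt35, 1.97% in Krt71 and 0 in Krt32, Krt75, Krt82, Krt84, Krtap7-1, Krtap8-1, Krtap11-1, Krtap16-1 and Krtap17-1. Among the genes with 0, the share of counts in Ctrl 3 was 89.6% in Krt82 and 91.0% to 97.15% in the Krtap genes. It was only 43.4% in Krt32, 44.6% in Krt84 and 58.7% in Krt75. Strong confinement to Ctrl 3 was thus seen in some genes without such shared sequence and in genes with it.

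The media were then compared with the control bandage. Of the 31 genes 16 passed the filter on low counts that precedes the test, so the tests concern Krt25 to Krt28, Krt71 to Krt73, Krt75, Krt32, Krt35, Krt36, Krt81, Krt83, Krt87, Krtap10-10 and Krtap12-1. The edgeR quasi-likelihood test with Benjamini-Hochberg adjustment over 18978 genes called 0 of the 16 at an adjusted p under 0.05 in CM0, CM1, CMA or CMC against Ctrl, in the mean of the 4 media against Ctrl, or in the test for any difference among groups. It also called 0 (0%) of all genes in each of these comparisons. At an unadjusted p under 0.05 it listed 8 of the 16 for CM0, 15 for CM1, 5 for CMA and 15 for CMC, beside 4.92%, 7.04%, 6.61% and 8.55% of all genes, and 16 in the mean of the media and 13 for any difference, beside 9.42% and 4.65%. DESeq2, run without that filter, gave a p-value to 16 of the 31 genes, which need not be the same 16, and called 0 of them. The other 15 had no p-value there, so the 0 calls do not cover them. At an unadjusted p under 0.05 it listed 8 for CM0, 14 for CM1, 5 for CMA and 15 for CMC. Among all 38663 genes with a p-value there it listed 1103, 1605, 1483 and 1855. On the 16 genes tested by edgeR, limma with voom and sample quality weights called 0 and listed 0 at an unadjusted p under 0.05. Among all 18978 genes limma called 0 and listed 1377 for CM0, 1415 for CM1, 1245 for CMA and 1688 for CMC. It listed 2062 in the mean of the media and 939 for any difference.

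All 16 genes had a lower fitted level in each medium than in Ctrl, where 52.6%, 51.3%, 53.3% and 51.6% of all genes did in CM0, CM1, CMA and CMC, and 52.9% in the mean of the media. The median log2 fold change of the 16 was -2.69 for CM0, -4.49 for CM1, -1.98 for CMA and -4.75 for CMC, against -0.01 for all genes in each. The 4 comparisons share the same 6 control libraries and so the same Ctrl 3. Without Ctrl 3, 14 of the genes were tested and 0 had an unadjusted p under 0.05 in any comparison. Among all 18943 genes tested in that setting, edgeR listed from 845 (any difference) to 1500 (CMA) at this limit. Few would thus be awaited among 14 genes. The median log2 fold change of all genes lay between -0.012 (CMA) and -0.0061 (CM0). The medians of the 14 genes were then 0.02 in CM0, with 8 genes higher and 6 lower, and 0.75 in CMA, with all 14 higher. They were -1.60 in CM1 and -1.99 in CMC, each with 1 gene higher and 13 lower. The direction in CM0 and CMA thus depended on 1 control wound. In CM1 and CMC it was kept, but Ctrl 4, at 682.6 CPM of the 31 genes, was still among the controls. The remaining controls stood at 5.39 to 37.8 CPM, beside 26.2 to 62.2 CPM in CM1 and 11.5 to 115.7 CPM in CMC. Whether the direction there depended on Ctrl 4 was not tested.

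Group means and medians pointed in different directions. The summed level of the 31 genes had a mean of 1321 ± 2878 CPM (SD, n = 6) under the control bandage. It was 156.1 ± 237.9 CPM in the 4 CM0 wounds and 44.5 ± 17.3 CPM in the 4 CM1 wounds, and 280.7 ± 394.3 CPM in the 5 CMA wounds and 40.6 ± 43.1 CPM in the 5 CMC wounds. The SD exceeded the mean in every group other than CM1. The Ctrl median was 26.9 CPM, beside 51.3 CPM for CM0, 44.9 CPM for CM1, 148.0 CPM for CMA and 25.4 CPM for CMC. By the mean Ctrl was the highest group, and by the median it was above CMC alone.

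The gene with the highest mean CPM of each keratin class gives the size of the differences. Krt71 had a mean of 404.5 ± 872.2 CPM in Ctrl (SD, n = 6) and of 50.5 ± 89.2, 11.7 ± 7.69, 101.6 ± 152.0 and 9.74 ± 14.8 CPM in CM0, CM1, CMA and CMC. Its log2 fold change was -5.11 (SE 2.28) in CM1 and -5.32 (SE 2.09) in CMC, with edgeR adjusted p = 0.695 and 0.549, and -2.10 (SE 1.84) and -2.31 (SE 1.72) without Ctrl 3. In CM0 it was -3.00 (SE 2.00) and in CMA -1.99 (SE 1.74), and without Ctrl 3 it was 0.02 (SE 1.67) and 1.01 (SE 1.57). Krt25, its type I counterpart in the same sheath, had log2 fold changes of -2.76, -4.91, -1.89 and -4.84 in CM0, CM1, CMA and CMC, and of 0.19, -1.97, 1.04 and -1.91 without Ctrl 3.

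Among the shaft keratins Krt87, of type II, had log2 fold changes of -4.67 (SE 1.66), -6.03 (SE 1.89), -3.69 (SE 1.41) and -6.34 (SE 1.77) in CM0, CM1, CMA and CMC, and of -0.24, -1.61, 0.73 and -1.92 without Ctrl 3. Krt35, the early type I shaft keratin, had -2.62, -4.49, -1.93 and -4.66, and 0.01, -1.86, 0.69 and -2.05 without Ctrl 3. Over the 16 genes the edgeR adjusted p lay between 0.946 and 0.953 for CM0, 0.695 and 0.737 for CM1, 0.725 and 0.858 for CMA, and 0.546 and 0.616 for CMC. In the mean of the media it lay between 0.148 and 0.476. When Ctrl 2, a control with low levels, was left out, Krt83 (log2 fold change -6.22), Krt81 (-5.92) and Krt87 (-5.44) passed in the mean of the media, each with edgeR adjusted p = 0.0471. Of all 18960 genes tested there 5 passed, these 3 among them. Ctrl 3 held 91.6%, 89.9% and 87.3% of the counts of these 3 genes, which were named after their values were seen. Krtap7-1, Krtap11-1 and Krtap17-1 led their classes but did not pass the filter and were not tested.

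**Figure D5:**
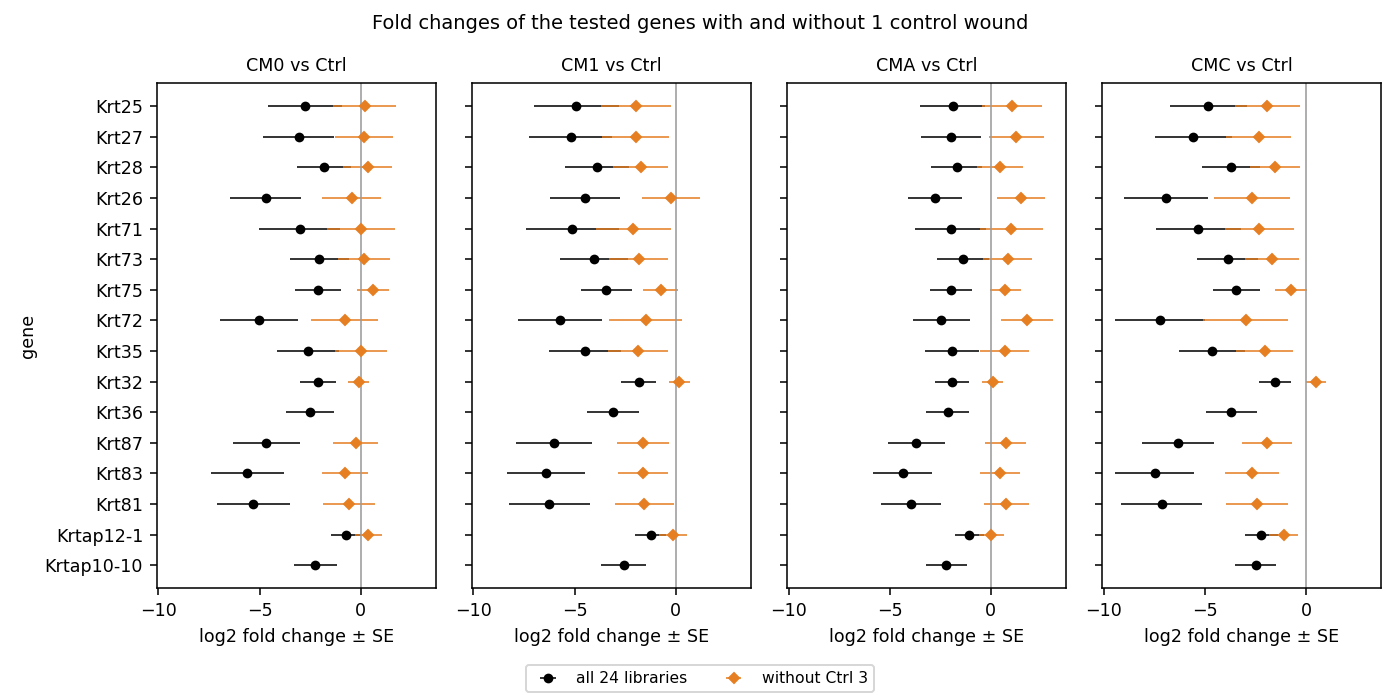
Log2 fold change against Ctrl with its SE for the 16 tested genes in each medium, from all 24 libraries (black circles) and without Ctrl 3 (orange diamonds, 14 genes). Black points are all left of 0, and without Ctrl 3 all 14 genes in CMA are right of 0 and 8 of 14 in CM0.

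Other hair genes were read beside the keratins. The gene most like the 16 tested genes over the 24 libraries was Tchh, by a Spearman correlation of 0.96 between its log2 CPM and their mean log2 CPM. Tchh codes for trichohyalin, the protein that stiffens the inner root sheath, and stood at 3412 CPM in Ctrl 3, 309.5 in CMA 3, 297.4 in Ctrl 4 and 136.2 in CM0 2. Next came Gm49425 (0.95), which shares sequence with Krt87, Foxe1 (0.91), Dct (0.91), Padi3 (0.90), Shh (0.90), Fbp1 (0.90), Pmel (0.89), Ggt1 (0.87) and Tyr (0.84). Padi3 codes for an enzyme that acts on trichohyalin, and Shh for a signal from the hair matrix. Dct, Pmel and Tyr are pigment genes of melanocytes, the cells that colour the growing hair. The points of these correlations are the same 24 libraries, which differ in depth and in tissue composition, and the median over 18962 genes was -0.0035 with a 99th percentile of 0.61.

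Other genes of hair growth were read as lists. Of 11 tested non-keratin genes of shaft and root sheath, 9 were highest in Ctrl 3. Of 24 hair regulator genes, among them transcription factors, signals and receptors, 16 were highest there, beside 12% of all genes tested. Of these 2 lists edgeR called 0 genes in any comparison, 8 and 20 had a lower fitted level in CM0, 9 and 20 in CM1, 9 and 16 in CMA, and 10 and 23 in CMC. The receptor gene Notch1, with the highest mean CPM of the second list, stood at 487.3 CPM in Ctrl 3 and between 164.7 and 265.4 CPM elsewhere. Hoxc13 and Lef1, chosen after their values were seen because both are regulators of shaft keratin genes, stood at 38.8 and 45.6 CPM in Ctrl 3. Hoxc13 stood at 5.97, 5.13 and 6.86 CPM and Lef1 at 8.55, 11.9 and 10.5 CPM in CMA 3, Ctrl 4 and CM0 2. Shh stood at 5.40 CPM in Ctrl 4, 5.45 CPM in CM0 2 and 4.88 CPM in Ctrl 3.

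Markers of other cells moved with the hair genes in part. Of 12 tested melanocyte genes 11 were highest in Ctrl 3, and their list summed to 631.7 CPM there and to between 73.5 and 180.4 CPM in the other libraries, where CM0 2, CMA 3 and Ctrl 4 came next. Of 14 genes of cell division all were highest in Ctrl 3, with a sum of 953.2 CPM against 352.3 to 704.5 CPM elsewhere, and CMA 3 and Ctrl 4 came next. Of 15 genes of the dermal papilla, the mesenchyme that instructs the matrix, 6 were highest in Ctrl 3, but the sum was 279.6 CPM there and the range of all libraries was 252 to 493.4 CPM. Of 13 genes of the bulge, where hair stem cells reside, 3 were highest in Ctrl 3 and 3 were lowest there. The highest there were the transcription factor genes Lhx2, Sox9 and Tcf7l1, named after their values were seen. Col17a1 was among the lowest there, at 486.1 CPM against 492.6 to 1194 CPM elsewhere. Krt15 stood at 306.2 CPM in Ctrl 3 and between 110.9 and 1217 CPM elsewhere, with a median of 592.9. Sox9 stood at 31.2 CPM in Ctrl 3 and at most 13.7 CPM elsewhere, while the matrix protein gene Postn, with the highest mean CPM of the list, stood at 2846 CPM in Ctrl 3 and between 3029 and 7170 CPM elsewhere. The list sum of 4275 CPM in Ctrl 3, the lowest of the 24, thus consisted mostly of Postn. None of the 14 genes of the interfollicular epidermis and none of the 17 of skeletal muscle was highest in Ctrl 3. Of all genes tested 12% were, so few would be awaited in lists of this size. The count was 2 of 12 for the sebaceous gland, 1 of 4 for wound-edge keratins and 0 of 11 for adipocytes. The muscle list summed to 34920 CPM in Ctrl 4, the highest value, 30830 CPM in CM0 2, 15020 CPM in Ctrl 3 and 5519 CPM in CMA 3, the lowest. The 7 skin markers named at the start, Krt5 to Ptprc, had their lowest sum in Ctrl 3, 49010 CPM against up to 91610. The part that these cells have in the differences between wounds was not tested.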

How the data were processed

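RNA from snap-frozen wounds was depleted of ribosomal RNA and made into libraries with the NEBNext Ultra kit, per the labels' protocols; that kit does not mark strand. The values deposited by the authors are raw read counts per gene. The submitters' processing notes name bcl2fastq 2.17, FastQC, cutadapt, STAR, featureCounts, DESeq2 and GRCm38; the sources used here do not give an annotation release. Symbols and coordinates came from GENCODE M21, which gave a symbol for 54165 of 54232 identifiers. Total counts per library set the precision, and 3 counts correspond to 0.250 to 0.413 CPM before the correction for composition.

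Library numbers such as Ctrl 3 are names given within a group in the order of deposition. All 24 libraries entered 1 edgeR quasi-likelihood fit (edgeR 4.0.16, R 4.3.3) with a term per group, filterByExpr, TMM scaling, robust dispersion and Benjamini-Hochberg adjustment at 0.05. The SE is the log2 fold change divided by the square root of F. CPM use the TMM-scaled library sizes, and no 2 libraries held identical values. Alternatives were RLE scaling, no filter, DESeq2 1.42.0, limma 3.58.1 with voom and sample quality weights, and leaving out each library. The fits were tested on simulated data. Shared sequence was counted over transcript stretches of 50 bases.

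The genes and gene lists were chosen with earlier results of these data known. Levels are named for all kept keratins and the leading gene of each Krtap family, and fold changes for the gene with the highest mean CPM of each of 7 classes; further Krtap genes, Hoxc13, Lef1 and genes called in 1 alternative were named after their values were seen. The classes of Krtap genes were assigned by family number from general knowledge, because no protein sequences were used here; the plan had been to use residue composition.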

Additional observations from a re-analysis of the deposited data

Results flagged for a closer look

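Each class sum was searched within each group for a library that stood apart, by the gap to its neighbour relative to the range of the group (Dixon's 95% limit). Of 40 combinations of class and group 21 had such a library, each time the highest. Dixon's limit presumes normally distributed values, and these sums, which spanned 5.39 to 7171 CPM in Ctrl, were not put on a log scale. The count of 21 therefore cannot be held against a chance rate. The classes also share libraries and are not independent. Single genes were examined through these sums.

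Ctrl 3 stood apart in all 7 classes and in the whole set, with 2114 CPM of type I and 2821 CPM of type II root sheath keratins, 975.9 CPM of type I and 843.5 CPM of type II shaft keratins, 186.9 CPM of high sulfur, 31.6 CPM of ultra-high sulfur and 198.2 CPM of glycine- and tyrosine-rich proteins, and 7171 CPM in all. CMA 3 stood apart in CMA for all classes other than the high sulfur proteins, with 368.3 and 478.4 CPM of type I and type II root sheath keratins and 67.7 and 35.1 CPM of type I and type II shaft keratins. Its ultra-high sulfur and glycine- and tyrosine-rich proteins stood at 1.24 and 3.15 CPM, and all genes at 962.1 CPM. CM0 2 stood apart in CM0 for the root sheath keratins, at 203.6 and 255.7 CPM of type I and type II, and for all genes, at 509.2 CPM. CMC 5 stood apart in CMC for type II root sheath keratins at 57.7 CPM, type I shaft keratins at 11.3 CPM and all genes at 115.7 CPM. In CM1 no class had a library apart.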

How the results depend on the processing

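Calls by edgeR were 0 genes in all 6 comparisons, also with RLE scaling and without the filter on low counts. DESeq2 called 1 gene in CM0, CM1 and CMC against Ctrl and for any difference, which were Vgll3, Fibin, Cebpd and Fibin, named after their values were seen; 15 of the 31 genes had no adjusted p there. Leaving out single libraries gave 0 to 1 genes in CM0 (Vgll3, without CM0 2) and 0 to 5 in the mean of the media. These 5, without Ctrl 2, were Krt83, Krt81, Krt87, Wdhd1 and Ddx3y, and the hair genes called there numbered 0 to 3. The median log2 fold change of the tested hair genes ranged over single libraries left out from -6.03 to 0.016 in CM0, -6.17 to -1.60 in CM1, -3.34 to 0.75 in CMA, -6.21 to -1.99 in CMC and -5.95 to -0.70 in the mean of the media. The upper ends came without Ctrl 3 and the lower ends without CM0 2, CM1 2, CMA 3, CMC 5 and CM0 2. Leaving out a CM0 or CM1 library lowers the number of libraries the filter asks for, so 26 of the 31 genes were then tested. With limma and sample quality weights, which gave Ctrl 3 a weight of 0.488, the medians were -0.064, -0.21, 0.14, -1.11 and -0.29.

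Directions turned for single genes in CM0, CM1 and CMA. With limma, Krt25 was at 0.16, 0.73 and 1.27 and Krt71 at 0.078, 0.73 and 0.85 in these 3 comparisons, Krt87 at 0.19 in CM0 and 0.092 in CMA, and Krt35 at 1.16 in CMA. Over single libraries left out, Krt25 ranged from -5.34 to 0.19 in CM0 and -3.34 to 1.04 in CMA, Krt71 from -6.03 to 0.018 and -3.50 to 1.01, and Krt35 from -4.40 to 0.014 and -3.09 to 0.69. Krt87 ranged from -5.15 to 0.73 in CMA. No CMC value of these 4 genes turned. The cause of these shifts was not tested. The count rule kept 31 genes, 15 when 10 counts were asked of 4 libraries and 68 with 1 count in 2. No paired analysis was possible because the labels carry no replicate numbers that link libraries across groups.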
